A study of Mus musculus with 2 samples.

Results

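The 10 genes described here, Wnt2, Wnt5a, Rspo2, Rspo3, Sfrp1, Sfrp2, Dkk2, Dkk3, Axin2 and Cthrc1, are Wnt ligands, enhancers, inhibitors and a target gene. They were taken as a fixed list, which was chosen with earlier results of these data known. Counts of these members set beside the share of all genes are therefore descriptions. All 10 were found among the 32285 genes listed in the count matrices. They were followed in primary adipose progenitors of newborn (P0) C57/BL6J mice, grown from the subcutaneous white (WAT) and the interscapular brown (BAT) depot until the dishes were confluent (4 days per the labels) and profiled by droplet single-cell RNA sequencing, which counts the 3′ ends of transcripts as unique molecular identifiers (UMIs). Each depot gave 1 library from a pool of 4 male and female pups, no mouse carried an engineered allele, and none received a treatment. The white tissue was digested in collagenase for 35 minutes and the brown tissue for 50 minutes, so depot, pool of pups, digestion, culture and library cannot be told apart, and no test between the depots was possible.

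Wnt proteins are secreted lipid-modified ligands that bind Frizzled receptors together with LRP5/6 for the β-catenin branch of the pathway, or with receptors such as ROR1 and ROR2 for the branches that do not use β-catenin. R-spondins bind LGR receptors and keep the ligases RNF43 and ZNRF3 from removing Frizzled, which raises the response to Wnt, whereas secreted Frizzled-related proteins (SFRP) bind Wnt ligands and Dickkopf proteins such as DKK2 bind LRP5/6. In fat, β-catenin signalling is known to hold precursor cells back from becoming adipocytes.

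All 10 are protein-coding genes, given here with their GRCm38 positions (GENCODE). Of the ligands, Wnt2 lies on the minus strand of chr6:17988940-18030585 and Wnt5a on the plus strand of chr14:28504750-28527448. Rspo2 (chr15:43020794-43170826) and Rspo3 (chr10:29452416-29535867) are on the minus strand. Sfrp1 (chr8:23411502-23449632), Sfrp2 (chr3:83766321-83774316) and Dkk2 (chr3:132085292-132180304) are on the plus strand, and Dkk3 (chr7:112116017-112159057) is on the minus strand. Axin2 (chr11:108920349-108950783) and Cthrc1 (chr15:39076932-39087121) are on the plus strand. Rspo3 shares its strand with 1 overlapping annotated gene, Gm20276, and the other 9 with none.

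Promoters of 4 of the 10 genes were in the RefSeq table (GRCm38). The 250 bases before the start of Dkk2 (chr3:132085042-132085291, plus strand) are shown because this gene differed most between the pooled precursor cells of the depots, and those of Axin2 (chr11:108920099-108920348, plus strand) because it is a widely used target gene of β-catenin. Capitals mark TATAAA, the core of a TATA box, searched on the gene's strand:
Dkk2: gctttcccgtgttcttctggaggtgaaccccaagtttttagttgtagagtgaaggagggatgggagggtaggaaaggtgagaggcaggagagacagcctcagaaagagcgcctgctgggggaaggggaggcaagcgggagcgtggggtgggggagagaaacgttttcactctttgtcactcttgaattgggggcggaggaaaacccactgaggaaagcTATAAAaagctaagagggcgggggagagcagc
Axin2: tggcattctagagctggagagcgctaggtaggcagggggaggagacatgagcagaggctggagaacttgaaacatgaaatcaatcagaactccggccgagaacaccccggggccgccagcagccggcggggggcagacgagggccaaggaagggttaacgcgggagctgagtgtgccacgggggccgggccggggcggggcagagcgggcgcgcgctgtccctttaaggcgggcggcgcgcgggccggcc
The Dkk2 stretch holds TATAAA beginning 32 bases before the start, as do 7.59% of the 32851 promoters of this length at some position, and the stretch was 55.6% G or C. Axin2's stretch was 69.2% G or C. The letters of 2 forms of the TCF/LEF motif, ATCAAAG (in 3.21% of promoters, either strand) and TTCAAAG (4.46%), were in none of the 4 promoters.

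After the filters of the study, 4332 white and 5961 brown precursor cells remained, with a median of 26950 and 26419 UMIs per cell and 122939077 and 169620450 UMIs in all. The 6 precursor markers Pdgfra, Pdgfrb, Dlk1, Col1a1, Dcn and Lum were each above 10 CPM (the gene's UMIs scaled to 1000000 UMIs of the group) in both. Names of the study's clusters were known for 1999 precursor cells of each depot: CAPs are committed adipogenic precursors, FAPLs fibro-adipogenic progenitor-like cells, and the remaining groups are numbered adipose precursor clusters (wAPC 1 to wAPC 4, bAPC 1 to bAPC 5) and 15 differentiating wFAPLs. The 6 adipogenic markers summed to 803 CPM in wCAPs and 1068 in bCAPs against 269 in wFAPLs and 449 in bFAPLs. The 5 FAPL markers summed to 1498 and 1940 CPM in the FAPLs against 373 and 395 in the CAPs. Cluster names and marker sums come from the same cells, so these sums describe the clusters and cannot test their names. In the 15 differentiating wFAPLs the 6 mural markers summed to 27369 CPM against 3655 in all white precursor cells, and 1 of the 6 precursor markers was at 0. Their adipogenic and FAPL marker sums, 1285 and 3397 CPM, were also the highest of all clusters. These sums rest on part of each list, as 2 of the 6 adipogenic and 1 of the 5 FAPL markers were at 0. White and brown glial cells (46 and 68), myeloid cells (29 and 77) and 31 brown myogenic cells were left out of the precursors and used as a background. The 5 FAPL markers were not particular to FAPLs. They summed to 2121 CPM in white and 2193 CPM in brown glial cells and to 1860 CPM in brown myogenic cells. In white and brown myeloid cells they summed to 92.3 and 50.3 CPM. The 6 adipogenic markers were not particular to CAPs either, with 741 and 640 CPM in white and brown myeloid cells. In white glial, brown glial and brown myogenic cells the adipogenic markers summed to 15.1, 126 and 152 CPM. In wCAPs and bCAPs 4 of these 6 markers reached 10 CPM. Both libraries held 9 common cell barcodes. The clusters rest on these very UMIs, so differences between clusters are descriptions. All intervals given are 95% and cover counting error only.

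Between the depots, Cthrc1 and Rspo2 were higher and Dkk2 was lower in brown precursor cells, each by more than 2-fold. These are 3 of the 8 members that reached 10 CPM in either depot, while 1.84% of the 9038 genes at that level passed 2-fold (0.73% higher and 1.11% lower in brown). Rspo3 and Dkk3 were also higher in brown and Sfrp2 was lower, all by less than 2-fold, and Wnt5a and Sfrp1 were nearly level. The median log2 ratio of the 8 members was 0.30, against -0.04 over all genes at that level. Axin2 and Wnt2 stayed under 10 CPM in both depots. The 6 mural markers summed to 3655 CPM in white and 4763 CPM in brown precursor cells, and the part of such cells in these differences was not tested.

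**Figure D1:**
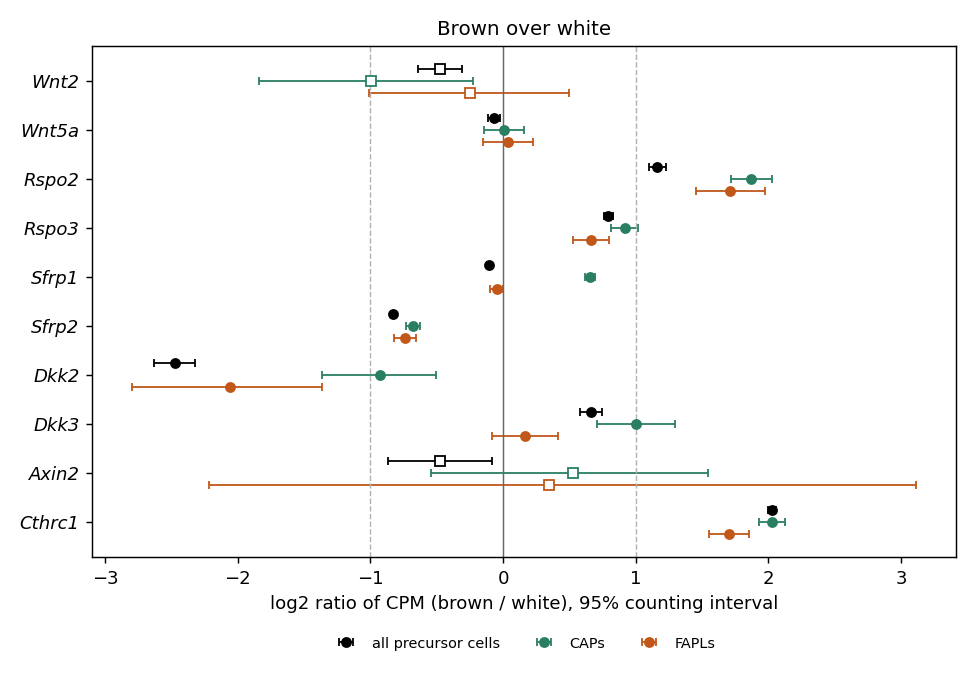
Log2 ratio of CPM, brown over white, for each gene in all precursor cells (black), CAPs (green) and FAPLs (orange), with 95% counting intervals; open squares mark genes under 10 CPM in both groups and dashed lines a 2-fold difference. Cthrc1 and Rspo2 lie beyond the right dashed line in all 3 comparisons, and Dkk2 lies beyond the left line in precursor cells and FAPLs.

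Wnt5a, a ligand that mostly acts without β-catenin, in part through ROR receptors, was level between the depots. It stood at 56.5 CPM in white and 54.0 CPM in brown precursor cells, a log2 ratio of -0.07 (interval -0.11 to -0.02). A UMI of it was found in 67.6% of white and 69.0% of brown precursor cells, against 2.17% and 7.35% of glial cells. The median depths of the glial cells were 20107 and 19494.5 UMIs. Wnt5a was also found in 3.45% (1 cell) of white myeloid, 18.2% of brown myeloid and 22.6% of brown myogenic cells. Across the white clusters it ran from 45.5 CPM in wAPC 1 to 64.2 CPM in wAPC 4, with 29.4 CPM (interval 16.0 to 49.3) in the differentiating wFAPLs. The brown clusters ran from 45.1 CPM in bAPC 4 to 65.7 CPM in bAPC 3. In the order of the levels, no white cluster differed from its neighbour beyond counting error, and in brown only bAPC 1 (54.1 CPM) stood above the next, bAPC 2 (45.6 CPM). The CAPs and the FAPLs of the 2 depots were level for this ligand, with log2 ratios of 0.01 (interval -0.15 to 0.16) between the CAPs and 0.04 (interval -0.15 to 0.22) between the FAPLs.

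Wnt2, a ligand of the β-catenin branch, was rare, at 4.90 CPM in white (603 UMIs) and 3.53 CPM in brown (599 UMIs) precursor cells. The log2 ratio was -0.47 (interval -0.64 to -0.31). One white cluster stood out: wAPC 2 had 8.89 CPM (interval 6.92 to 11.3), with a UMI in 21.5% of its cells, whereas the next white clusters, wAPC 3 and wFAPLs, had 4.77 and 4.74 CPM. The step from wAPC 2 to wAPC 3 was 0.90 on the log2 scale (interval 0.27 to 1.56), and the white clusters after it did not differ from their neighbours. Brown clusters ranged from 2.07 CPM in bCAPs to 4.56 CPM in bAPC 3, each within counting error of the next, and bCAPs lay below the pooled other brown clusters (log2 -0.91, interval -1.72 to -0.19). Brown glial and myeloid cells had 1.32 and 0.95 CPM (2 UMIs each) and the brown myogenic cells 7.59 CPM (7 UMIs), which is 215% of the brown precursor level. No Wnt2 UMI was seen in the white glial or myeloid cells or in the differentiating wFAPLs, where 3 UMIs would be 6.29 CPM.

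Both R-spondins of the list were higher in the brown library. Rspo2 stood at 21.2 CPM in white and 47.5 CPM in brown precursor cells, which is 2.24-fold (log2 1.16, interval 1.10 to 1.23). Rspo3 stood at 69.6 and 120.7 CPM, which is 1.73-fold (log2 0.79, interval 0.76 to 0.83). Within the CAPs the Rspo2 difference was wider, 29.2 CPM in wCAPs against 107 CPM in bCAPs (log2 1.87, interval 1.72 to 2.03), and within the FAPLs it was 22.6 against 74.0 CPM (log2 1.71, interval 1.46 to 1.97). For Rspo3 the CAPs held 92.7 and 175 CPM (log2 0.91, interval 0.81 to 1.02) and the FAPLs 101 and 161 CPM (log2 0.66, interval 0.53 to 0.80). Background in glial cells was 0 UMIs of Rspo2 in white, where 3 UMIs would be 2.84 CPM, and 2.65 CPM in brown. That of Rspo3 was 2.84 and 7.28 CPM. In other brown cells it was higher, 29.0 CPM of Rspo3 in myeloid cells (24.0% of the precursor level) and 19.5 CPM in myogenic cells, and 7.12 and 5.42 CPM of Rspo2.

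Among the brown clusters bCAPs were highest for both R-spondins, followed by bFAPLs at 74.0 CPM for Rspo2 and 161 CPM for Rspo3. For Rspo2 the lowest was bAPC 2, at 17.7 CPM, and bAPC 3 reached 62.5 CPM. In white, Rspo2 was highest in wCAPs and wAPC 2 (29.2 and 27.7 CPM, log2 difference 0.08 with an interval of -0.15 to 0.31), and only 2.95 CPM (5 UMIs) in wAPC 4. Rspo3 was highest in wFAPLs and lowest, of the clusters with more than 15 cells, in wAPC 4 (33.0 CPM) and wAPC 1 (38.5 CPM). The 15 differentiating wFAPLs had no Rspo3 UMI, where 3 UMIs would be 6.29 CPM. Rspo1 and Rspo4, the other genes of the family, were under 1 CPM in both depots.

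The R-spondin receptor Lgr4 was lower in brown. It had 98.6 CPM in white and 37.3 CPM in brown precursor cells (log2 -1.40, interval -1.44 to -1.36). In bCAPs, which held the most Rspo2 and Rspo3, Lgr4 was at its lowest among brown clusters, 20.7 CPM against 107 CPM in wCAPs (log2 -2.36, interval -2.60 to -2.14). Lgr4 in bAPC 5 was 67.2 CPM, the highest brown level, while white clusters other than differentiating wFAPLs (29.4 CPM) ran from 56.4 CPM in wAPC 1 to 139 CPM in wAPC 3. Lgr5, a related receptor, stood at 15.0 CPM in white and 8.73 CPM in brown precursor cells. Its highest clusters were wAPC 2 (42.4 CPM), bAPC 5 (32.5 CPM) and bCAPs (23.0 CPM).

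**Figure D2:**
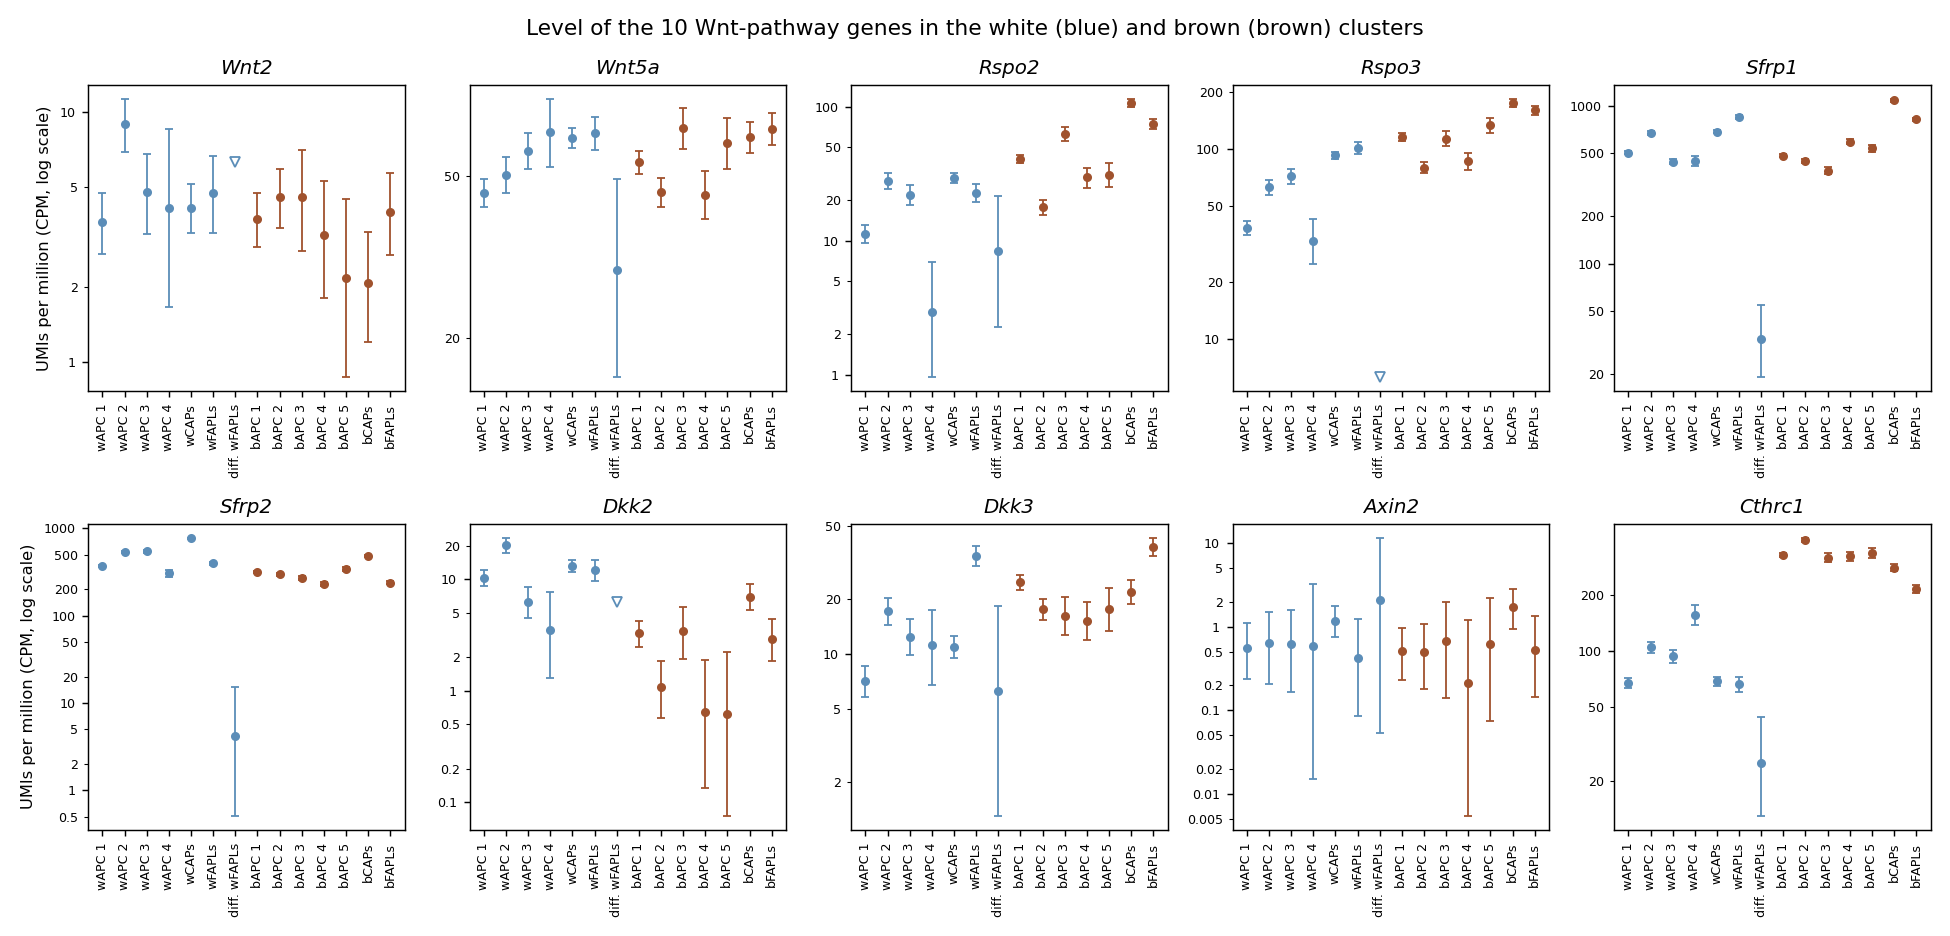
Level of each gene (CPM, log axes that differ between panels) in the 7 white clusters (blue) and 7 brown clusters (brown), with exact 95% Poisson intervals; open triangles give the level of 3 UMIs where none was seen. Cthrc1 is the panel in which every brown cluster (215 to 394 CPM) lies above every white one (25.2 to 157 CPM).

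Sfrp1 and Sfrp2, soluble Frizzled-related proteins that bind Wnt ligands, differed in their patterns. Sfrp1 was nearly level between the depots, 641 CPM in white and 594 CPM in brown precursor cells (log2 -0.11, interval -0.12 to -0.10), and the sign turned to 0.26 when the 14 clusters weighed the same. That setting gives the 15 differentiating wFAPLs, at 33.5 CPM, the weight of any other white cluster. Within the CAPs it was higher in brown, 684 CPM in wCAPs against 1079 CPM in bCAPs (log2 0.66, interval 0.62 to 0.70), and within the FAPLs it was level, 845 against 816 CPM (log2 -0.05, interval -0.10 to 0.00). Among the white clusters Sfrp1 was highest in wFAPLs, followed by wCAPs and wAPC 2 (684 and 673 CPM, within counting error of each other), and lowest of the larger clusters in wAPC 3 (443 CPM). Among the brown clusters it fell from bCAPs over bFAPLs to bAPC 3 (388 CPM), each step in that order being beyond counting error. Sfrp2 was lower in brown in all 3 comparisons: 555 against 312 CPM in precursor cells (log2 -0.83, interval -0.85 to -0.82), 771 against 482 CPM in CAPs and 399 against 239 CPM in FAPLs. In each depot the CAPs held the highest Sfrp2 of all clusters. The lowest of the larger clusters were wAPC 4 (305 CPM) in white, and bAPC 4 (231 CPM) and bFAPLs (239 CPM) in brown, the last 2 within counting error of each other.

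In the 15 differentiating wFAPLs both genes were low, with 33.5 CPM of Sfrp1 (interval 19.2 to 54.5) and 4.19 CPM of Sfrp2 (2 UMIs). Glial cells gave Sfrp1 UMIs in 89.1% of white and 86.8% of brown cells, close to the 96.0% and 96.1% of precursor cells. Their Sfrp1 level, 254 and 262 CPM, was 39.6% and 44.1% of that in the precursor cells, while their Sfrp2 level was 3.41% and 8.71% of it. Myeloid cells held 10.1% and 15.7% of the precursor level for Sfrp1, and 15.8% and 14.2% for Sfrp2. In glial cells the 2 genes were thus not in the ratio they had in the precursor cells.

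Dkk2, an antagonist that binds LRP5/6, had the widest difference of the 10 between the pooled precursor cells of the depots. It stood at 13.9 CPM in white (1704 UMIs) and 2.49 CPM in brown (423 UMIs), 5.56-fold lower in brown (log2 -2.47, interval -2.63 to -2.32). With the 14 clusters weighing the same it was -1.80, less wide than Cthrc1 at 1.91, and in the CAPs Cthrc1, Rspo2 and Dkk3 differed more. Equal weights count the 15 differentiating wFAPLs, with no Dkk2 UMI, like any other white cluster. A Dkk2 UMI was found in 9.42% of white and 3.52% of brown precursor cells, against none of the 46 white and 68 brown glial cells and 3.45% (1 cell) and 2.60% of myeloid cells. The brown share is thus close to that of the myeloid background. Among the FAPLs the levels were 12.1 and 2.92 CPM (log2 -2.06, interval -2.80 to -1.37), and among the CAPs 13.2 and 6.95 CPM (log2 -0.93, interval -1.37 to -0.51). Of the 87 Dkk2 UMIs of the wFAPLs, 37 were in 1 cell. Without it the wFAPLs had 7.00 CPM, under the 10 CPM floor, and the log2 ratio was -1.26 (interval -2.06 to -0.51). The CAP difference was -1.61 when cluster names were carried over to all cells and -1.80 with all captured cells. In white, Dkk2 was highest in wAPC 2 (20.2 CPM, interval 17.2 to 23.7) and fell to 6.30 CPM in wAPC 3 and 3.54 CPM (6 UMIs) in wAPC 4. In brown, bCAPs held the most, and bAPC 4 and bAPC 5 held 3 and 2 UMIs.

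Dkk3, a divergent Dickkopf family member that is not known to bind LRP5/6 like its relatives, was 14.2 CPM in white and 22.5 CPM in brown precursor cells (log2 0.66, interval 0.58 to 0.74). It was the member most clearly tied to FAPLs. wFAPLs held 34.6 CPM and the next white cluster, wAPC 2, 17.1 CPM; bFAPLs held 38.7 CPM and the next brown cluster, bAPC 1, 24.7 CPM. Between the FAPLs of the depots the log2 ratio was 0.16 (interval -0.09 to 0.41). Between the CAPs it was 1.01 (interval 0.71 to 1.30), from 10.9 and 21.9 CPM, but 0.76 with carried-over cluster names, which is under 2-fold.

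Cthrc1, a secreted matrix protein that helps Wnt ligands bind ROR2 and Frizzled, was 4.07-fold higher in brown, 77.2 against 314 CPM (log2 2.02, interval 1.99 to 2.06). The difference was of like size in the CAPs, 68.7 against 280 CPM (log2 2.03, interval 1.93 to 2.12), and smaller in the FAPLs, 66.1 against 215 CPM (3.26-fold, log2 interval 1.55 to 1.85). It was the only member whose levels in the 7 brown clusters did not overlap with those in the 7 white clusters; the same held for 160 of 10229 genes at 10 CPM in some cluster, or 1.56%. The lowest brown clusters were bFAPLs and bCAPs, and the highest was bAPC 2, at 394 CPM. In white, wAPC 4 stood above the rest at 157 CPM (interval 138 to 177), followed by wAPC 2 at 104 CPM. All 12 Cthrc1 UMIs of the differentiating wFAPLs came from 1 of the 15 cells. White glial cells had 79.5 CPM of Cthrc1, 103% of the level in white precursor cells, and brown glial cells had 135 CPM, 43.0% of the brown precursor level, the same direction between the libraries as in the precursor cells. The white myeloid cells held 1.18 CPM (1 UMI) and the brown 39.9 CPM.

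Axin2, a scaffold of the β-catenin destruction complex and a feedback target of the pathway, was close to the limit of detection. There were 112 UMIs of it in white (0.911 CPM) and 111 in brown precursor cells (0.654 CPM), a log2 ratio of -0.48 (interval -0.87 to -0.09). UMIs were found in 2.47% of white and 1.68% of brown precursor cells, against 8.70% (4 cells) and 1.47% (1 cell) of glial cells, so neither share stood clear of the background. wCAPs had 1.19 CPM (23 UMIs) and bCAPs 1.71 CPM (14 UMIs), and no cluster differed from its neighbour in the order beyond counting error. Against all other clusters of its library, the log2 ratio was 1.03 for wCAPs (interval 0.13 to 1.95) and 1.76 for bCAPs (interval 0.70 to 2.76). The brown myogenic cells gave 4.34 CPM (4 UMIs, interval 1.18 to 11.1). Of the 15 target genes listed, 7 reached 10 CPM in either depot. None of these passed 2-fold between the precursor cells of the depots, where 1.84% of all genes at that level did. At that share, so few genes say little about the targets. Of the low ones, Lef1 stood at 1.73 CPM in white and 3.07 CPM in brown, Apcdd1 at 5.76 and 4.37 CPM, Nkd2 at 2.77 and 5.83 CPM, and Tcf7, Notum and Rnf43 under 1 CPM in both. Nkd1 (28.6 and 19.1 CPM) and Znrf3 (32.3 and 25.0 CPM) were readily counted and lower in brown.

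Receptors of the pathway were present in both depots. Fzd1 stood at 31.7 CPM in white and 51.6 CPM in brown, Fzd2 at 112 and 102 CPM, Lrp5 at 20.4 and 21.3 CPM, and Lrp6 at 121 and 83.9 CPM. Of the ROR receptors, Ror1 stood at 265 and 200.5 CPM and Ror2 at 106 and 73.0 CPM. None of the 13 receptors tested passed 2-fold, where 1.84% of all genes did (0.73% higher and 1.11% lower in brown), so this count says little. Of 87 further Wnt genes beside the 10 members, 45 reached 10 CPM, 1 was more than 2-fold higher in brown and 1 lower. These were Igfbp4, a binding protein of insulin-like growth factors that also binds Frizzled and LRP6, at 154 CPM in white and 321 CPM in brown, and Lgr4. In the CAPs, where 4.32% of all genes passed 2-fold (2.14% higher and 2.18% lower), 3 of the 8 members tested were higher in brown (Rspo2, Cthrc1 and Dkk3) and none lower, and 3 of 45 further Wnt genes were higher (Gpc3, Igfbp4 and Fzd8) and 2 lower (Lgr4 and Myc). The members that passed in the CAPs changed with the cells used: with carried-over names and with all captured cells Rspo2, Rspo3 (log2 1.03 and 1.05) and Cthrc1 were higher and Dkk2 was lower, while Dkk3 (0.76 and 0.84) did not pass. In the FAPLs, where 1.69% of all genes passed 2-fold (0.646% higher and 1.04% lower), Rspo2 and Cthrc1 were higher and Dkk2 lower among 8 members tested, and of 43 further Wnt genes Lgr4 alone passed, lower in brown. Without the 1 wFAPL cell with the most Dkk2 UMIs, Dkk2 was no longer among the 7 members tested. Of these 2 passed, as did 1.64% of all genes.

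FAPLs and CAPs of the same depot were compared next. In white, Dkk3 was the 1 of 8 members that passed 2-fold, 10.9 CPM in wCAPs against 34.6 CPM in wFAPLs (log2 1.66, interval 1.39 to 1.93); of all genes 3.85% did, 2.25% higher and 1.6% lower. In brown, Sfrp2 was the 1 of 7 that passed, 482 CPM in bCAPs against 239 CPM in bFAPLs (log2 -1.01, interval -1.10 to -0.93), where 3.87% of all genes did (1.86% higher and 2.01% lower). The brown Sfrp2 value fell short of 2-fold after centring on the median gene (-0.98), with the mean of per-cell CPM (-0.95) and in G1 cells (-0.82). Both genes moved alike in the other depot, just short of 2-fold: Sfrp2 in white by -0.95 (interval -1.01 to -0.89) and Dkk3 in brown by 0.82 (interval 0.55 to 1.10). Rspo2 was lower in FAPLs of both depots, by -0.37 in white (interval -0.63 to -0.11) and -0.53 in brown (interval -0.68 to -0.37). Sfrp1 was 0.30 higher in wFAPLs (interval 0.26 to 0.35) and 0.40 lower in bFAPLs (log2 -0.40, interval -0.45 to -0.36). Cthrc1 was level in white (-0.06, interval -0.21 to 0.10) and lower in bFAPLs (-0.38, interval -0.47 to -0.29). Mural markers summed to 2397 CPM in wCAPs and 4401 CPM in wFAPLs, and to 4275 and 5737 CPM in bCAPs and bFAPLs; their part in these differences was not tested. Of 43 further Wnt genes in white, Igfbp4 (log2 1.50) and Ror1 (log2 1.38) were higher in FAPLs and Lgr5 lower (log2 -1.14). Of 45 in brown, Lgr4 was higher (log2 1.27) and Lgr5 (log2 -1.51) and the ligand gene Wnt16 (log2 -1.84) were lower.

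**Figure D3:**
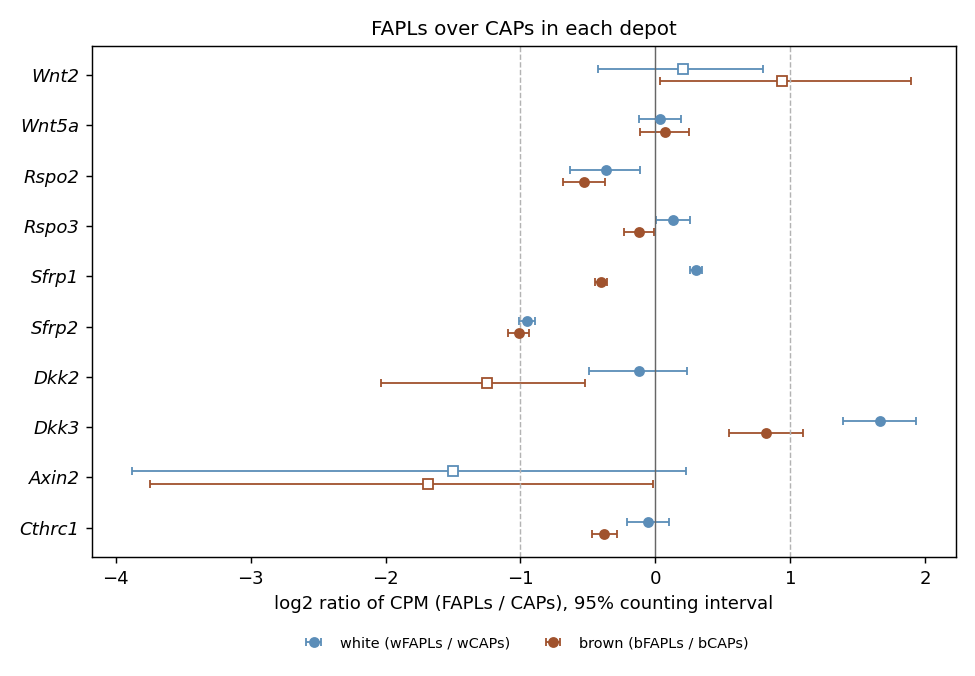
Log2 ratio of CPM, FAPLs over CAPs, for each gene in white (blue) and brown (brown), with 95% counting intervals; open squares mark genes under 10 CPM in both clusters and dashed lines a 2-fold difference. Sfrp2 lies near -1 and Dkk3 to the right of 0 in both depots, while Sfrp1 lies at 0.30 in white and -0.40 in brown.

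Over single cells, several members were spread unevenly, and Rspo2 and Dkk2 are described first. In brown, 71.8% of precursor cells had no Rspo2 UMI, where an even spread at each cell's depth would leave 28.1% without, and the highest single cell held 81 UMIs. The 10% of cells with the most Rspo2 held 80.6% of its UMIs. Cells with 5 or more Rspo2 UMIs made up 7.31% of brown precursor cells (436 cells) and held 73.3% of the UMIs, against 3.62% (157 cells) in white. Such cells were present in every brown cluster, from 2.17% of bAPC 2 to 16.2% of bCAPs (interval 12.2 to 20.9). Dkk2 behaved alike in white, where 90.6% of cells had none against 68.0% for an even spread, 90 cells (2.08%) with 5 or more UMIs held 68.8% of all Dkk2 UMIs, and 1 cell held 85. In brown 14 cells (0.23%) reached 5 Dkk2 UMIs. Rspo3 was found more widely, in 55.7% of white and 75.0% of brown cells, but was uneven too, with 25.0% of brown cells having none against 5.03% for an even spread. For Sfrp1 and Sfrp2 the variance over cells was 15.0 and 17.0 times that of an even spread in white and 14.9 and 13.7 times in brown. For Wnt5a it was 1.87 and 1.55 times, for Dkk3 1.66 and 1.79 times, and for Wnt2 1.50 and 1.27 times. At a like relative spread this ratio rises with the level of a gene. The levels of these genes differ widely, so it does not rank them by unevenness.

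**Figure D4:**
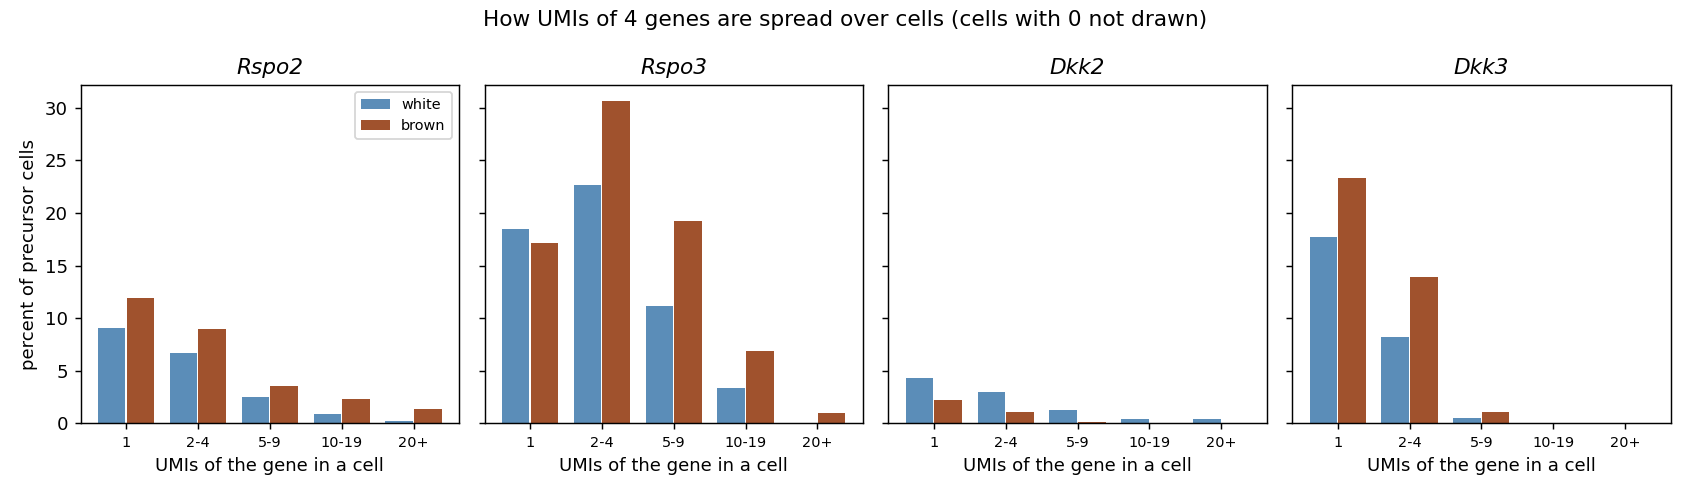
Percent of white (blue) and brown (brown) precursor cells with 1, 2 to 4, 5 to 9, 10 to 19 or at least 20 UMIs of Rspo2, Rspo3, Dkk2 and Dkk3; cells with none are not drawn. Rspo2 and Dkk2 have few cells with any UMI and a tail of cells with many, while Dkk3 has no cell above 9.

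Cells rich in 1 R-spondin held more of the other. Brown cells with 5 or more Rspo2 UMIs had 190 CPM of Rspo3, against 105 CPM in the 4280 brown cells with no Rspo2 UMI, and the white values were 111 and 62.1 CPM. They also had more Dkk2, 31.7 against 11.1 CPM in white and 5.89 against 1.95 CPM in brown, while Cthrc1 was the same in brown (314 and 312 CPM). Median depth was 28036.5 UMIs in the brown Rspo2-rich cells and 26065 in those without. The cells were pooled over clusters, and Rspo2-rich cells ran from 2.17% of bAPC 2 to 16.2% of bCAPs. These 2 clusters were also the lowest and highest brown ones for Rspo3 (80.0 and 175 CPM). The part of the cluster mix in these differences was not tested. The genes that were higher in the Rspo2-rich cells of both depots, chosen after their values were seen, were led by Epha7, an ephrin receptor (40.8 against 17.7 CPM in white, 77.5 against 24.8 CPM in brown), and Sorbs2, an adaptor of actin fibres. Flt1, a VEGF receptor, was lower in them, by a log2 ratio of -1.86 in white and -1.16 in brown. Over single cells the correlations were weak: 0.14 in white and 0.19 in brown between Rspo2 and Rspo3, and 0.33 and 0.25 between Sfrp1 and Sfrp2, which share library and depth.

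Sfrp2 was not detected in part of the FAPLs. No Sfrp2 UMI was found in 23.0% of wFAPLs and 33.7% of bFAPLs, against 1.19% of wCAPs and 2.70% of bCAPs. The other clusters held such cells too. Their share ran from 5.77% of wAPC 2 to 9.68% of wAPC 4, and from 6.27% of bAPC 2 to 16.4% of bAPC 3. In the 15 differentiating wFAPLs it was 93.3%. Single FAPLs held up to 156 UMIs in white and 168 in brown. In wFAPLs, the 59 cells with none had 536 CPM of Sfrp1 and 53.6 CPM of Rspo3, and the 132 cells with 5 or more had 1016 CPM of Sfrp1 and 113 CPM of Rspo3. The brown FAPLs gave 606 and 1036 CPM for Sfrp1 and 120.2 and 218 CPM for Rspo3. Rspo2 differed in the brown FAPLs, 35.5 CPM in the cells without Sfrp2 and 150 CPM in those with 5 or more, and was 18.2 and 15.5 CPM in the white. Among all genes, also chosen after their values were seen, the Sfrp2-rich FAPLs of both depots had more Il33, an alarmin (39.0 against 5.89 CPM in white, 27.6 against 4.79 CPM in brown), and Grem1, a BMP antagonist (33.7 against 5.30 CPM, and 71.2 against 14.4 CPM). The genes that were higher in FAPLs without Sfrp2 were led by Slc1a6, Igfbp2 and Ankrd1. Next came Mcam, an adhesion molecule of vessel-wall cells (log2 of Sfrp2-rich over none -1.55 in white and -1.61 in brown).

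Levels also differed with the cell cycle call made from S and G2/M genes. Of the precursor cells, 65.2% in white and 64.8% in brown were called G1. Wnt5a was the only member that was higher in G2/M than in G1 in both depots with an interval clear of 0, 71.6 against 51.5 CPM in white and 65.8 against 50.0 CPM in brown. Rspo2, Rspo3, Sfrp1, Sfrp2 and Dkk3 were higher in G1 in both, with log2 ratios of G1 over G2/M between 0.24 and 0.56. Rspo3, for example, stood at 136 CPM in brown G1 cells and 94.4 CPM in brown G2/M cells. Dkk2 was 17.1 CPM in white G1 cells and 7.72 CPM in white G2/M cells (log2 1.14, interval 0.94 to 1.36), and 2.33 and 2.74 CPM in brown. Cthrc1 was level in white (0.02, interval -0.06 to 0.09) and higher in G1 in brown (0.27, interval 0.24 to 0.30). With G1 cells alone, the same number of members passed 2-fold between the precursor cells of the depots, where 1.94% of all genes did.

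**Figure D5:**
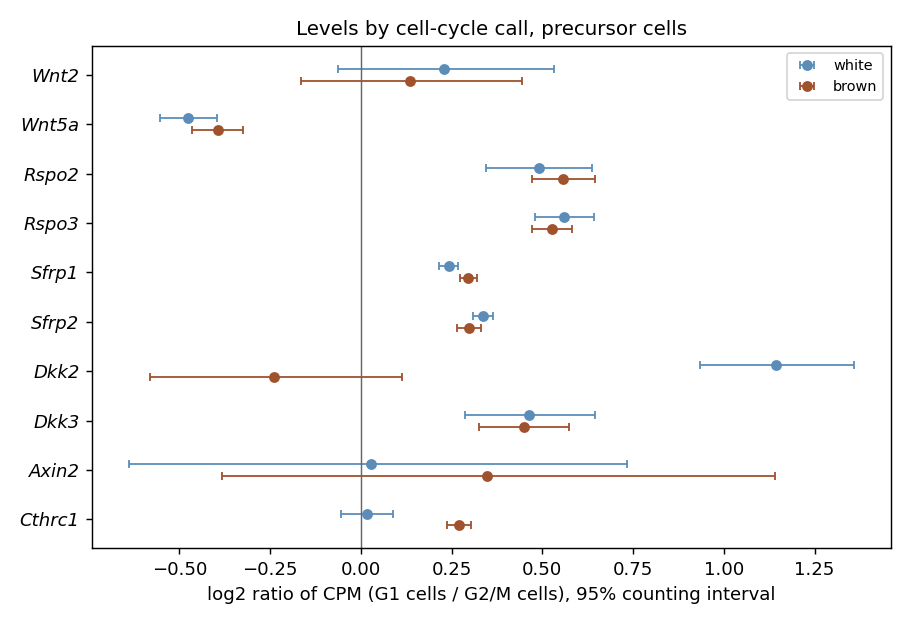
Log2 ratio of CPM, cells called G1 over cells called G2/M, for each gene in white (blue) and brown (brown) precursor cells with 95% counting intervals. Wnt5a is left of 0 in both depots, and white Dkk2 lies farthest to the right, at 1.14.

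Among 8115 genes with at least 20 CPM in some cluster, those whose log2 levels followed a member most closely over the 14 clusters were Sox9 for Rspo3 (Pearson r 0.98), Klhl22 for Sfrp2 (0.98), Nlgn2 for Sfrp1 (0.96) and the ribosomal protein gene Rpl41 for Cthrc1 (0.95). The differentiating wFAPLs set much of these values. Without them, over 13 clusters and 7816 genes, the closest were Plekha2 for Rspo3 (0.92), Mindy2 for Sfrp1 (0.91) and Erf for Cthrc1 (0.94). Rspo2 and Rspo3 were then among each other's 3 closest genes (0.91), with Gas2 the closest to Rspo2 (0.94). For Dkk3, Cttnbp2 was closest with and without these cells (0.90 in both). The clusters of a depot share 1 library, so these values describe 2 libraries.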

How the data were processed

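Per the labels, 1 white and 1 brown library (10x Chromium 3′ v3.1) were processed by the authors with Cell Ranger 7.0.1 on mm10, and the deposited matrices hold raw UMI counts per gene and cell. The members and the lists of Wnt and marker genes were chosen with earlier results of these data known. Cells were kept with the study's cutoffs: above 3900 and below 7700 genes, 1.7 to 5% mitochondrial UMIs, and 6000 to 60000 UMIs. Cluster names are those of the study's source data for the first 1999 cells of each depot, and glial, myeloid and myogenic cells were told apart by 5 nearest labelled neighbours on 30 principal components (scanpy 1.11.5, scikit-learn 1.9.0). No doublet caller was run here. UMIs were summed per group and given as CPM with exact Poisson intervals; ratios have conditional binomial and shares Clopper-Pearson intervals at 95%. PCR and cell-to-cell variation are outside these intervals. A gene counted as past 2-fold had at least 10 CPM in either group. The rule and the intervals were run on simulated Poisson counts. Such counts hold no variation between cells, so that run cannot show how the intervals hold for unevenly spread genes. Phases were called with Seurat 5.3.0 gene lists. Named genes were the 10 members, Wnt-list genes past 2-fold, and a fixed set of receptors and targets. Also named were genes that differed between member-rich and member-free cells, chosen after their values were seen, and the 3 genes most like each member. Alternatives changed the CPM floor, the fold, the centring, the averaging, the cells and the labels. One of these closest genes is not reported here.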

Additional observations from a re-analysis of the deposited data

Results flagged for a closer look

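For Sfrp1 and Rspo3 the difference between FAPLs and CAPs went opposite ways in the 2 depots. Sfrp1 had a log2 ratio of FAPLs over CAPs of 0.30 in white and -0.40 in brown, with intervals of counting error clear of 0 in both. Rspo3 had 0.13 in white and -0.12 in brown, small values that moved to 0.09 in white and -0.26 in brown with carried-over names and to 0.09 and -0.09 in G1 cells; the white interval begins at 0.00. With 1 library per depot the difference between the depots was not tested.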

How the results depend on the processing

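Between the depots, 3 members passed 2-fold in precursor cells; 1 of 5 tested did with a floor of 50 CPM and 6 did at 1.5-fold. The share of all genes that passed was 1.84%, and 11.8% with no floor, 1.37% with a floor of 50 CPM and 5.16% at 1.5-fold. When the clusters weighed the same, 3 members passed again, where 2.58% of all genes did, but as 3 higher and 0 lower. Rspo3 joined (log2 1.11) and Dkk2 (log2 -1.80) came under the 10 CPM floor. This setting gives the 15 differentiating wFAPLs, with no UMI of Rspo3 or Dkk2, the weight of any other white cluster. It was not run without them. Of the whole Wnt list 5 passed, against 18 with no floor, 3 with a floor of 50 CPM and 12 at 1.5-fold. For FAPLs over CAPs in white, 1 member passed, against 2 with no floor, 0 with a floor of 50 CPM and 2 at 1.5-fold. Of all genes 3.85% passed, against 12.9%, 3.23% and 8.71% in these settings. In brown 1 passed, against 3 with no floor, 2 at 1.5-fold and 2 with carried-over names (Dkk3 joined at log2 1.01). The count was 0 after centring (Sfrp2 at log2 -0.98), with the mean of per-cell CPM (-0.95) and in G1 cells (-0.82). Of all genes in brown 3.87% passed, against 12.1% with no floor, 9.9% at 1.5-fold and 3.78% with carried-over names. The shares after centring, with the mean of per-cell CPM and in G1 cells were 3.84%, 4.1% and 4.48%. Between the CAPs 7 and between the FAPLs 5 passed at 1.5-fold, against 3 each. Of all genes 12.7% and 6.14% passed at 1.5-fold, against 4.32% and 1.69%. Leaving out the differentiating wFAPLs, an alternative chosen after the data were seen, kept 3 members and 5 genes of the list. Of all genes 1.85% then passed. Leaving out the wFAPL cell with the most Dkk2 UMIs was also chosen after the data were seen. It left 2 members between the FAPLs (1.64% of all genes) and 1 between wFAPLs and wCAPs (3.82% of all genes). Of 430 log2 ratios of single members under the alternatives, 413 kept their sign. Those with no floor, a floor of 50 CPM and 1.5-fold (50 each) could not change, as these settings alter only the call. The 17 ratios that changed sign were of Wnt5a, Sfrp1, Dkk2, Cthrc1 and Axin2. No paired analysis was possible because each depot has 1 library. Carried-over names were recovered for 90.2% of held-out white and 85.2% of brown cells. Axin2 and Wnt2 stayed under the 10 CPM floor in every comparison.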
